A study of Glycine max with 9 samples.

Results

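Catalases and ascorbate peroxidases are the main enzymes with which plant cells remove hydrogen peroxide. Catalase splits hydrogen peroxide into water and oxygen without a reductant and works mainly in peroxisomes, where photorespiration releases the compound in illuminated leaves. Ascorbate peroxidase (APX) reduces hydrogen peroxide with ascorbate as electron donor, and its cytosolic forms act outside the organelles. Chilling in the light is known to raise hydrogen peroxide in leaves of warm-climate plants. Transcripts of 6 soybean genes of these families were followed in chilled leaves. They were taken from a list of identifiers, and all 6 of the 6 listed were found among the 49777 genes of the deposited table. The list gave 4 of them as catalases (Glyma04g01920, Glyma06g02040, Glyma14g39810 and Glyma17g38140). It gave the other 2 as cytosolic APX, namely Glyma11g15680 as APX1 and Glyma12g07780 as APX2.

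The names rest on that list, because the table of counts holds identifiers alone. None of its 49777 identifiers (0) occurred in a RefSeq table of 59048 soybean genes (assembly Glycine_max_v4.0). That table holds 6 genes with a CAT or APX symbol, and each lies on the chromosome whose number stands in the identifier of a different one of the 6 genes followed here. CAT4, CAT5, CAT3 and CAT1 were on the chromosomes numbered in Glyma04g01920, Glyma06g02040, Glyma14g39810 and Glyma17g38140, and APX1 and APX2 on those numbered in Glyma11g15680 and Glyma12g07780. This match is of chromosome numbers only. Other genes of hydrogen peroxide metabolism could not be listed without a match of identifiers, and no leaf marker genes could be looked up.

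The RNA came from unifoliates, the first pair of true leaves, of soybean (Glycine max) seedlings of the cultivar Williams82 (PI518671), 2 weeks old, not inoculated with Rhizobium and not fertilized. The seedlings were raised at 20 °C under 18 h days and 6 h nights and moved to 4 °C at 4 h into the light period, with the light cycle kept. The 3 groups were harvested after 0, 1 and 24 h at 4 °C, with 3 libraries each, numbered 1 to 3, and at least 6 plants behind a library. The 1 h leaves were taken later in the day than the 0 h leaves and the 24 h leaves were a day older, so hour, age and cold cannot be told apart here. The libraries summed to 71.0 to 81.9 M normalized counts, from an estimated 18.0 to 67.8 M reads. The libraries of replicate 3 stood apart at each time: among abundant genes (mean of 1000 or more, 11790 genes) 34.1% lay more than 2-fold from the mean of replicates 1 and 2 at all 3 times, in the same direction. What libraries of 1 number have in common is not in the labels, and values are therefore given within each number.

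The 6 genes were all well measured. The least counted, Glyma14g39810, rested on an estimated 513 to 1609 reads per library, for a counting error of at most 4.41% of a value. Glyma17g38140 had at most 2.95%, and the other 4 genes at most 1.57%. Values are normalized counts, not divided by gene length, so levels are compared between libraries and not between genes. In these leaf homogenates fewer cells of a type and less RNA per cell cannot be told apart.

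After 1 h at 4 °C the mean of each of the 6 genes was below that at 0 h, by 0.10 to 0.24 on the log2 scale, and none of these differences passed the test. The test was limma on log2(normalized count + 1) with the replicate number as a block, adjusted over all genes by the Benjamini-Hochberg method at 0.05. It called 0 of the 6 genes, while it called 4.47% of the 38985 genes tested. At an unadjusted p under 0.05 stood 4 of the 6, as did 20.1% of all genes. They were the catalases Glyma04g01920, Glyma14g39810 and Glyma17g38140 and the APX gene Glyma11g15680. The median log2 change was -0.19 over the 6 genes and -0.020 over all genes tested. Without the block 0 of 38985 genes were called, 0.0%, and the adjusted p of each of the 6 was 1. Among the abundant genes, 33.7% were lower at 1 h in 3 of 3 replicate numbers, as were 4 of these 6, the 4 catalases.

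**Figure D1:**
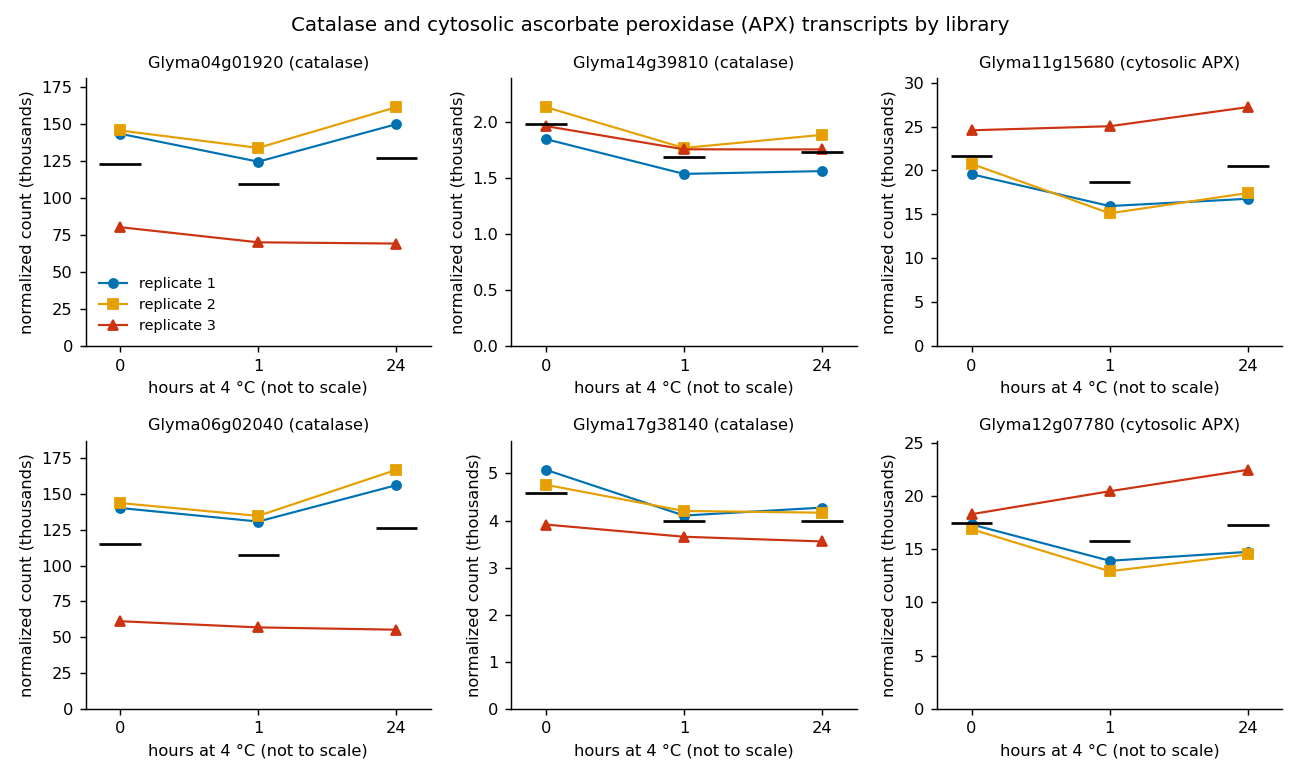
Normalized counts (axis in units of 1000, from 0) of the 6 genes at 0, 1 and 24 h at 4 °C, 1 panel per gene, with 1 line per replicate number and a black bar at the mean of each time. Replicate 3 lies far below the others for Glyma04g01920 and Glyma06g02040 and above them for Glyma11g15680 and Glyma12g07780. For Glyma17g38140 it lies below the others at every time, by less, and Glyma14g39810 shows similar levels in all 3 numbers.

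Glyma14g39810, listed as a catalase, had similar levels in all 3 replicate numbers. Before chilling, replicates 1, 2 and 3 held 1844, 2129 and 1960 normalized counts. The 1 h leaves held 1534, 1765 and 1753, and the 24 h leaves 1559, 1882 and 1752. As deposited, every 1 h value lay below every 0 h value. Such a lack of overlap toward lower values was found in 3.21% of the abundant genes. As a share of the library total the groups overlapped, with 0.00248% in replicate 2 at 1 h above 0.00242% in replicate 3 at 0 h. The log2 change at 1 h was -0.23 ± 0.067 (limma's moderated SE, 3 libraries per group, adjusted p = 0.0803), with a 95% interval from -0.38 to -0.084. With equal library totals the change was -0.17 (limma adjusted p = 0.199), and under quantile normalization -0.22 (limma adjusted p = 0.101). As deposited, the gene was 16.8%, 17.1% and 10.6% lower in replicates 1, 2 and 3. At 24 h its log2 change from 0 h was -0.19 ± 0.067 (limma adjusted p = 0.135), lower in 3 of 3 replicate numbers, and its highest 24 h value lay above its lowest 0 h value. Between 24 h and 1 h it differed by 0.038 on the log2 scale (interval -0.11 to 0.19, limma adjusted p = 0.972). By mean the order was 0 h with 1978 ± 143 (SD, n = 3), 24 h with 1731 ± 163 and 1 h with 1684 ± 130, and the order of the last 2 lay within their spread.

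Glyma17g38140, also listed as a catalase, followed the same course. Its 0 h values were 5077, 4759 and 3914 normalized counts in replicates 1, 2 and 3. The 1 h values were 4105, 4203 and 3655, and the 24 h values 4274, 4166 and 3555. The groups overlapped only through replicate 3, whose 0 h value lay below the 1 h and 24 h values of the other two. Its log2 change was -0.19 ± 0.065 at 1 h (limma adjusted p = 0.127) and -0.19 ± 0.065 at 24 h (limma adjusted p = 0.128), and it was lower in 3 of 3 replicate numbers at both times, as were 29.9% of abundant genes at 24 h. With equal library totals the log2 change was -0.13 at 1 h and -0.23 at 24 h. Under quantile normalization it was -0.16 and -0.19. The comparisons of 1 h and of 24 h share the 0 h libraries. The difference between 24 h and 1 h was 0.0018 (interval -0.14 to 0.15, limma adjusted p = 0.999). Mean levels were 4583 ± 601 (SD, n = 3) at 0 h, 3998 ± 388 at 24 h and 3988 ± 292 at 1 h, and each neighbour in this order overlapped the next.

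Glyma04g01920, a catalase by the list, split by replicate number. Its normalized counts at 0 h were 143462 in replicate 1, 145642 in replicate 2 and 80336 in replicate 3. They were 124573, 133898 and 70106 after 1 h, then 149910, 161434 and 69260 after 24 h. Replicate 3 lay below replicates 1 and 2 at every time, so the groups overlapped throughout. At 1 h the value was lower by 13.2%, 8.06% and 12.7% in replicates 1, 2 and 3, a log2 change of -0.17 ± 0.077 (limma adjusted p = 0.24). Leaving out the 24 h library of replicate 3, which this comparison reaches only through the shared spread, gave the same change with an adjusted p of 0.0462, in a fit that called 5.59% of genes. With equal library totals the change was -0.11 (adjusted p = 0.404), and under quantile normalization it was -0.015 (adjusted p = 0.94). At 24 h it was 4.49% and 10.8% higher than at 0 h in replicates 1 and 2 and 13.8% lower in replicate 3. The mean log2 change at 24 h was -0.00069 ± 0.077 (interval -0.17 to 0.17, limma adjusted p = 0.997). By mean, 24 h came first with 126868 ± 50222 (SD, n = 3). Then came 0 h with 123147 ± 37091 and 1 h with 109526 ± 34455. Each lay within the SD of its neighbour, and these SDs include the differences between replicate numbers. Taken within numbers, the log2 change from 0 h had an SD of 0.046 at 1 h and 0.19 at 24 h (n = 3).

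Glyma06g02040, another listed catalase, took up to 0.210% of the normalized counts of a library. Replicates 1, 2 and 3 held 140148, 143591 and 61116 before chilling. They held 130689, 134641 and 56814 at 1 h, then 156058, 166787 and 55193 at 24 h. Its difference at 1 h was the most even of the 6 genes across replicate numbers, with 6.75%, 6.23% and 7.04% less than at 0 h. The log2 change was -0.10 ± 0.079 (limma adjusted p = 0.53). It was -0.037 with equal library totals (limma adjusted p = 0.823) and 0.057 under quantile normalization, where the direction flipped. At 24 h the gene was 11.4% and 16.2% above 0 h in replicates 1 and 2 and 9.69% below it in replicate 3, a log2 change of 0.075 ± 0.079 (limma adjusted p = 0.664). The mean levels ran from 126013 ± 61566 (SD, n = 3) at 24 h over 114952 ± 46655 at 0 h to 107381 ± 43837 at 1 h. No neighbours in that order differed beyond these SDs, which include the differences between replicate numbers. Taken within numbers, the log2 change from 0 h had an SD of 0.0063 at 1 h and 0.19 at 24 h (n = 3).

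After 24 h at 4 °C none of the 6 genes (0) was called against 0 h, when 5.11% of all genes tested were. At an unadjusted p under 0.05 stood 2 of the 6, Glyma14g39810 and Glyma17g38140, compared with 19.9% of all genes. The median log2 change of the 6 was -0.080, beside -0.019 over all genes. In 4 of the 6 genes, replicates 1 and 2 differed from 0 h in one direction and replicate 3 in the other, a pattern found in 24.2% of abundant genes. Glyma04g01920 and Glyma06g02040 were higher in replicates 1 and 2 and lower in replicate 3, and the 2 APX genes the reverse. With no replicate of a single number and time, a difference between numbers in the response could not be tested. Without the block 0 genes were called at 24 h, 0.0%.

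**Figure D2:**
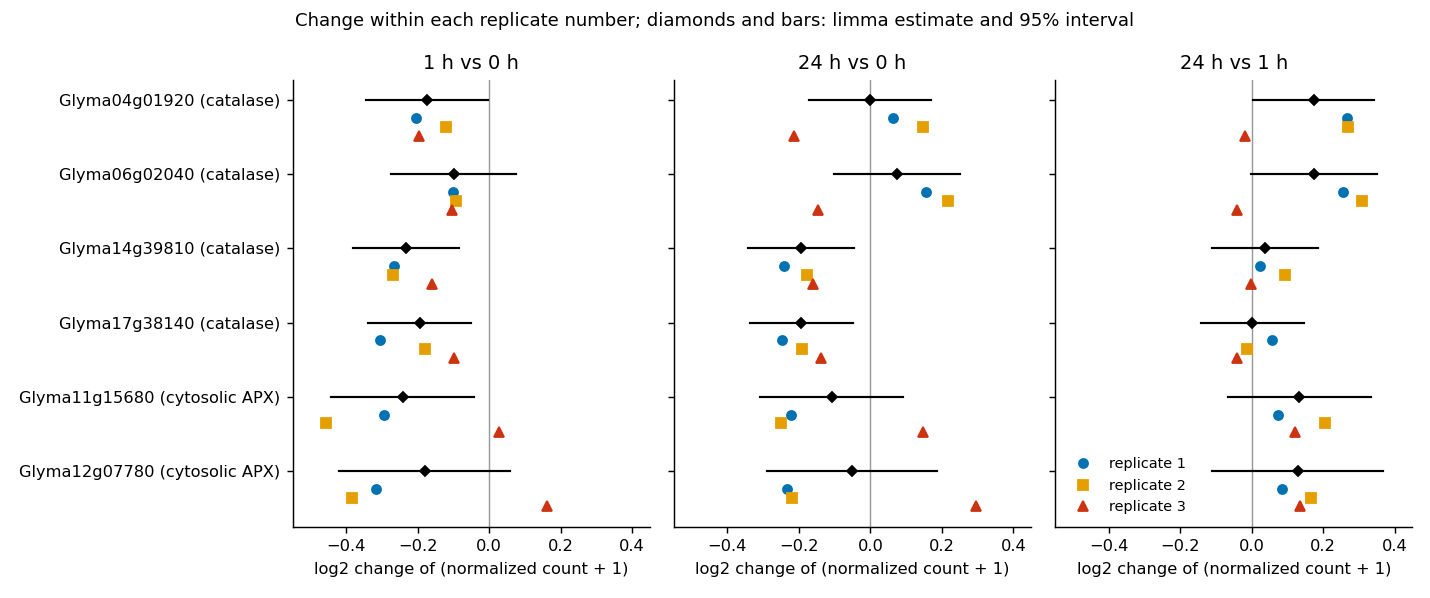
Log2 change of (normalized count + 1) of the 6 genes in each of the 3 comparisons, with 1 coloured point per replicate number, and the limma estimate (black diamond) with its 95% interval (black bar). At 1 h the catalase points all lie left of 0, and the APX points of replicate 3 lie right of 0 at 1 h and 24 h, opposite to those of replicates 1 and 2.

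The cytosolic APX genes had the widest split between replicate numbers at 1 h: both were lower in replicates 1 and 2 and higher in replicate 3. Such a split, in either direction, was found in 14.9% of abundant genes. Glyma11g15680, listed as APX1, started from 19570, 20753 and 24574 normalized counts (replicates 1, 2 and 3). After 1 h these were 15947, 15122 and 25038. It was thus 18.5% and 27.1% lower in replicates 1 and 2 and 1.89% higher in replicate 3, and the groups overlapped. The log2 change over all 9 libraries was -0.24 ± 0.091 (limma adjusted p = 0.168). Glyma12g07780, listed as APX2, held 17313, 16864 and 18274 normalized counts before chilling and 13900, 12916 and 20430 after 1 h. This was 19.7% and 23.4% lower in replicates 1 and 2 and 11.8% higher in replicate 3. The log2 change was -0.18 ± 0.11 (limma adjusted p = 0.388). Both changes at 1 h depended on the scaling. With equal library totals Glyma11g15680 was at -0.18 and Glyma12g07780 at -0.12, and under quantile normalization they were at -0.13 and -0.12.

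Only when replicate 3 was taken out did the test call the APX genes at 1 h. Without the 3 libraries of replicate 3, Glyma11g15680 fell by 0.38 on the log2 scale (limma adjusted p = 0.0269) and Glyma12g07780 fell by 0.35 (limma adjusted p = 0.0264). That fit called 2 of the 6 genes and 2.64% of all genes. Leaving out the 0 h library of replicate 3 alone gave -0.37 (adjusted p = 0.0236) and -0.35 (adjusted p = 0.0242), with 3.6% of all genes called. With neither the block nor replicate 3, an alternative chosen after the results were seen, the adjusted p was 0.103 and 0.113. The calls without replicate 3 thus rest on 2 libraries per group and on pairing them by number.

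At 24 h both APX genes were again below 0 h in replicates 1 and 2 and above it in replicate 3. Glyma11g15680 reached 16776, 17432 and 27214 normalized counts, which was 14.3% and 16.0% below 0 h in replicates 1 and 2 and 10.7% above it in replicate 3. Its log2 change from 0 h was -0.11 ± 0.091 (limma adjusted p = 0.561). Glyma12g07780 was at 14738, 14490 and 22442, or 14.9% and 14.1% below 0 h in replicates 1 and 2 and 22.8% above it in replicate 3, with a log2 change of -0.052 ± 0.11 (limma adjusted p = 0.846). For both genes replicate 3 had the highest value of each time. Mean levels of Glyma11g15680 were 21632 ± 2615 (SD, n = 3) at 0 h, 20474 ± 5846 at 24 h and 18702 ± 5502 at 1 h. Those of Glyma12g07780 were 17484 ± 720.3 at 0 h, 17223 ± 4521 at 24 h and 15749 ± 4084 at 1 h. In both orders the neighbours overlapped, and the spread was larger at 1 h and 24 h than at 0 h.

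Between 24 h and 1 h at 4 °C the test called 0 of the 6 genes and 0.0% of all genes (limma, 2211 genes at an unadjusted p under 0.05, 1 of them among the 6). The 2 APX genes were higher at 24 h in 3 of 3 replicate numbers, as were 19.8% of abundant genes. Glyma11g15680 differed by 0.13 ± 0.091 (limma adjusted p = 0.907) and Glyma12g07780 by 0.13 ± 0.11 (limma adjusted p = 0.927). These differences depended on the scaling: they were 0.031 and 0.026 with equal library totals and 0.0069 and 0.037 under quantile normalization. Glyma04g01920 and Glyma06g02040 were 20.3% and 19.4% higher in replicate 1, 20.6% and 23.9% higher in replicate 2, and 1.21% and 2.85% lower in replicate 3. Their log2 differences were 0.17 ± 0.077 and 0.17 ± 0.079 (limma adjusted p = 0.874 for both), and both had the opposite sign, -0.076 and -0.073, under quantile normalization. Scaling the libraries to equal totals moved the median of all genes in this comparison from 0.00014 to -0.10. Under that scaling Glyma14g39810 was at -0.064 and Glyma17g38140 at -0.10, on the other side of 0 from their values as deposited and close to that median.

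The replicate number accounted for most of the variation of 5 of the 6 genes. It took 97.4% of the summed squared log2 deviations of Glyma06g02040 and 94.8% of that of Glyma04g01920, beside a median of 92.0% over abundant genes. Time took 1.26% and 3.04%, and the median was 3.84%. For Glyma14g39810 the number took 44.8% and time 52.2%, and for Glyma17g38140 60.1% and 34.8%. The APX genes stood between, with 78.6% and 11.5% for Glyma11g15680 and 69.6% and 9.12% for Glyma12g07780. These shares follow from the size of the differences between numbers as well as between times: the log2 change at 1 h was -0.17 in Glyma04g01920 and -0.19 in Glyma17g38140.

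In replicate 3 Glyma06g02040 was at 0.431, 0.428 and 0.342 times the mean of replicates 1 and 2 at 0, 1 and 24 h. It was the 1 gene of the 6 more than 2-fold away at all 3 times, a state shared by 34.1% of abundant genes in either direction and by 12.7% toward lower values. Glyma04g01920, at 0.556, 0.543 and 0.445 times, stood just short of that limit at 0 h and 1 h. Glyma11g15680 was at 1.22, 1.61 and 1.59 times and Glyma12g07780 at 1.07, 1.52 and 1.54 times, so the APX genes of replicate 3 were nearest to the other numbers before chilling. Glyma14g39810 stayed between 0.989 and 1.07 times, and Glyma17g38140 between 0.796 and 0.880 times. No test was made of these differences.

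**Figure D3:**
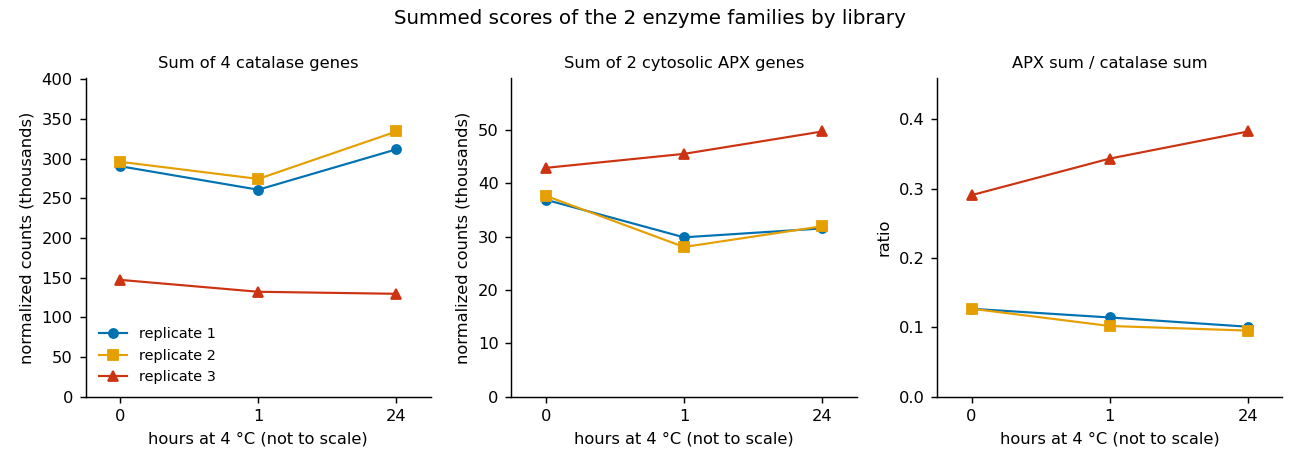
Summed normalized counts (axis in units of 1000, from 0) of the 4 catalase genes and of the 2 APX genes, and the ratio of the APX to the catalase sum, at 0, 1 and 24 h, with 1 line per replicate number. The ratio is 0.0955 to 0.127 in replicates 1 and 2 and 0.291 to 0.383 in replicate 3, and its lines diverge with time in the cold.

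Summed over the genes of each family, the balance of APX to catalase transcripts differed between replicate numbers and took opposite courses in them. Replicates 1, 2 and 3 held catalase sums of 290531, 296121 and 147326 normalized counts before chilling, 260901, 274507 and 132328 after 1 h, and 311801, 334269 and 129760 after 24 h. Between 95.9% and 98.2% of it came from Glyma04g01920 and Glyma06g02040, so it describes those genes. The APX sums were 36883, 37617 and 42848 before chilling, 29847, 28038 and 45468 after 1 h, and 31514, 31922 and 49656 after 24 h. Replicate 3 had the lowest catalase sum and the highest APX sum at every time. The ratio of the APX sum to the catalase sum stood at 0.127, 0.127 and 0.291 before chilling and at 0.101, 0.0955 and 0.383 after 24 h (replicates 1, 2 and 3). Genes differ in length, so the ratio itself is no ratio of molecules, and its differences between libraries are what can be read. From 0 h to 24 h it was lower by 0.33 and 0.41 on the log2 scale in replicates 1 and 2 (log2 change -0.33 and -0.41) and 0.40 higher in replicate 3, with a mean of -0.11 ± 0.44 (SD, n = 3). The mean is smaller than the spread between the numbers.

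**Figure D4:**
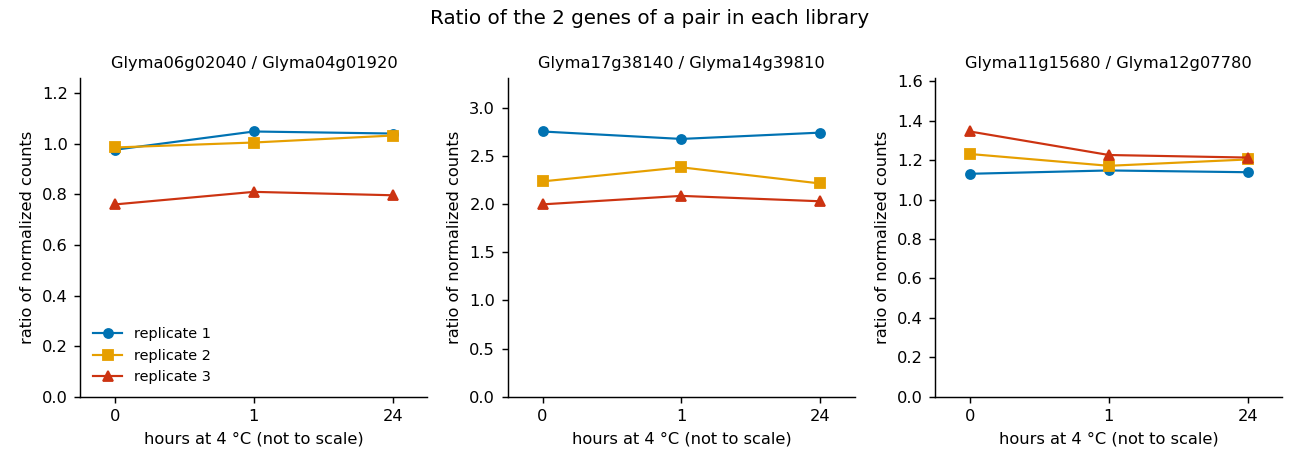
Ratio of normalized counts (axis from 0) within 3 pairs of genes at 0, 1 and 24 h, with 1 line per replicate number. The catalase lines are nearly flat over time, and their order is the same at 0, 1 and 24 h except that replicates 1 and 2 lie close together or cross in the first pair.

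Soybean is an ancient polyploid, and many of its genes exist as similar duplicates. The genes were set side by side in 3 pairs, chosen after their values were seen, and the proportion within a catalase pair moved less with time than between replicate numbers. For Glyma06g02040 over Glyma04g01920 the ratio was 0.977 to 1.05 in replicate 1, 0.986 to 1.03 in replicate 2 and 0.761 to 0.810 in replicate 3. For Glyma17g38140 over Glyma14g39810 it was 2.68 to 2.75, 2.21 to 2.38 and 2.00 to 2.09. Within a number these catalase ratios ranged over 0.041 to 0.11 on the log2 scale across the 3 times, whereas at a single time they ranged over 0.36 to 0.46 across the 3 numbers. The APX ratio, Glyma11g15680 over Glyma12g07780, was 1.13 to 1.15 in replicate 1, 1.17 to 1.23 in replicate 2 and 1.21 to 1.34 in replicate 3, where the 0 h library alone gave the highest value. It did not share the contrast of the catalase ratios: across times it ranged over 0.021, 0.072 and 0.15 on the log2 scale in replicates 1, 2 and 3, and across numbers over 0.25, 0.095 and 0.091 at 0, 1 and 24 h. How reads shared by similar genes were counted is not given in the sources used here, so the split within a pair is uncertain.

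The courses over time within replicate numbers were compared between the 6 genes and with all others. Likeness was the root mean square difference of log2 values over the 9 libraries, after the mean of each replicate number was subtracted from each gene, among genes with a mean of at least 100. Of 28536 other genes, Glyma12g07780 ranked 13 in likeness to Glyma11g15680, and Glyma11g15680 ranked 7 in likeness to Glyma12g07780. Glyma17g38140 ranked 25 for Glyma14g39810, which ranked 57 in return. Glyma06g02040 ranked 52 for Glyma04g01920, which ranked 34 in return. Across pairs the likeness was lower: from Glyma04g01920, the other 2 catalases ranked 4412 and 5517 and the APX genes 10985 and 13859. Glyma14g39810 ranked 555 in likeness to Glyma11g15680, nearer than Glyma04g01920, a catalase by the list, at 7933. Apart from the 6 listed genes, the single gene most like Glyma04g01920 was Glyma15g02420, at a difference of 0.018 beside a median of 0.17 over all genes. For Glyma11g15680 it was Glyma02g17260, at 0.021 beside a median of 0.19. Neither has a name in the sources used here, so whether they belong to these families is not known. The ranks describe these 9 libraries, on whose values the pairs were chosen, and add no support for the pairing.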

How the data were processed

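RNA of 9 libraries (3 times, 3 replicate numbers, both from the sample titles) was sequenced from total RNA with an Illumina TruSeq v2 preparation, per the labels' protocols. Each value of the deposited table is a score: by the table's own name a normalized count, here a whole number after rounding by the authors. Per the submitters' processing notes cutadapt 1.2.1 and DESeq 1.12 belong to the processing, in roles not stated there. Aligner, counter, strand setting, build and annotation are not given in the sources used here. Low scores lay on evenly spaced steps with some between them. The step gave an estimated worth of 1 read (1.17 to 4.15) and thus the depth, but did not recover whole reads, so a count test was not run.

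A mean of 10 or more kept 38985 of 49777 genes, and log2(score + 1) was fitted with limma 3.58.1 in R 4.3.3 (two-sided, 9 libraries in 1 fit, variances moderated by eBayes with its trend and robust options) with the replicate number as a block, because the rule for these genes pairs libraries by number. Adjustment was by Benjamini-Hochberg over the genes kept. The SE is limma's moderated one. The numbers come from the titles, which do not say what a number shares, so pairing by them rests on the list's rule. Deviations from the group means over 28537 genes were correlated between libraries of 1 number (r 0.85 to 0.98 in 9 pairs). Of the 9 libraries, 9 were closest to one of their own number. These correlations were not used to form the pairs. The fit was tested on simulated counts. Python 3.11.15 served for tables and figures. Every listed gene is named, and the closest genes were named by likeness for the catalase and the APX with the highest mean. The genes and tests were chosen with earlier results of these data known.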

Additional observations from a re-analysis of the deposited data

How the results depend on the processing

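Over the 22 alternatives, none of the 6 genes was called at 24 h or between 24 h and 1 h, and 1 h calls appeared only without libraries of replicate 3. Between 24 h and 1 h no alternative called more than 3 of all genes, so a call among the 6 was hardly possible there. At 24 h the number of all genes called ran from 0 without the block to 2166 with a mean of at least 100. Fits that left out 1 library or 1 replicate number called 0 to 2 of the 6 genes at 1 h: 2 without replicate 3, 2 without its 0 h library and 1 without its 24 h library. Without the replicate block 0 of the 6 were called at each time, with an adjusted p of 1 for each of the 6. Of 396 single values, 372 kept their direction and side of the threshold, 5 passed it and 19 changed sign; each sign change was of an uncalled value. They were Glyma06g02040 under quantile normalization at 1 h (0.057) and 24 h (-0.016); Glyma04g01920 at 24 h with neither the block nor replicate 3 (0.11, chosen after the results were seen); and between 24 h and 1 h Glyma04g01920 (-0.076), Glyma06g02040 (-0.073) and Glyma17g38140 (-0.034) under quantile normalization and Glyma14g39810 (-0.064) and Glyma17g38140 (-0.10) with equal library totals. Fits without single libraries or replicate numbers placed Glyma04g01920 at 24 h from -0.075 to 0.11, Glyma12g07780 at 24 h from -0.23 to 0.041 and Glyma17g38140 between 24 h and 1 h from -0.040 to 0.036. The cause of these shifts was not tested.

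At a limit of 1.5-fold, 2 of the 6 genes stood apart in replicate 3 in place of 1. The share of all genes at that limit was not computed, so this count cannot be set against it. The mean log2 change of the catalase sum at 1 h, -0.14 ± 0.026 (SD, n = 3), was -0.077 with equal library totals, -0.10 without Glyma04g01920 and -0.17 without Glyma06g02040, and that of the APX sum between 24 h and 1 h, 0.13 ± 0.054, was 0.029 with equal totals. With equal totals the genes called at 1 h were 1446 higher and 434 lower in place of 934 and 808, and at 24 h 918 and 1146 in place of 1173 and 820. The count tests and TMM scaling were not run, since both are made for counts and whole reads were not recovered. Of all genes, 0 and 1 were called at 1 h and 24 h without trend and robust moderation, and 734 and 1185 with the 2 compared groups alone, in place of 1742 and 1993. Depth limits Glyma14g39810 most, with a counting error of up to 4.41% of a value.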
